A study of Homo sapiens with 12 samples.

Results

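The genes that carry a cell from G1 into S phase and copy its DNA were followed in SZ95 sebocytes, a line of sebaceous gland cells of human origin that was made permanent with SV40 large T antigen. The set held 55 genes, each taken by its symbol from probe sets annotated with exactly that 1 gene. All 55 were measured, among 18417 genes tested in all. Where a gene had several probe sets, the one with the highest mean was used, and CLSPN and UHRF1 were the only members with a second probe set. RNA came from 12 Affymetrix HuGene 1.0 ST arrays, 3 per group. All cells grew in Sebomed medium and were lipofected, with scramble siRNA or with siRNA to OLR1. After 24 h they were left untreated or given PAPC oxidised by ultraviolet light (UVPAPC) at 25 µg/ml, which makes the groups scramble untreated, scramble with UVPAPC, OLR1 siRNA untreated and OLR1 siRNA with UVPAPC. The labels name no vehicle, no unoxidised PAPC and no cells without transfection, and the sources used here do not give the exposure time. SZ95 is a single cell line.

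A cell prepares to replicate in G1, when ORC, CDC6 and CDT1 load the MCM2 to MCM7 helicase onto origins. The kinases CDC7-DBF4 and cyclin E-CDK2 then fire the origins by bringing CDC45 and the GINS complex to the helicase, and polymerases, the PCNA clamp and its RFC loader copy the strands. Most of these genes are transcribed in a burst at the G1/S border under E2F factors once the RB protein is phosphorylated, and E2F8 later shuts them down. PAPC is a phosphatidylcholine with an arachidonic acid chain, and OLR1 encodes LOX-1, a scavenger receptor for oxidised lipoproteins.

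Promoters of 6 members are shown because these genes were among those that moved with OLR1 siRNA or UVPAPC and because they differ in the E2F letters they hold. They were chosen after the values were seen. Each runs from 250 bases before to 50 bases after a RefSeq start site on GRCh38.p14, 5′ to 3′ on the strand of the gene. Capitals mark the E2F letters TTTCCCGC and TTTGGCGC, the NF-Y letters CCAAT and the CHR letters TTTGAA, searched on both strands, so GCGGGAAA, GCGCCAAA, ATTGG and TTCAAA are the same runs read from the other strand. CLSPN, the fork protector claspin (chr1:35769929-35770228, minus strand), has 1 E2F run across its start site and 3 CCAAT runs. MCM6, a subunit of the replicative helicase (chr2:135876394-135876693, minus strand), has 2 E2F runs and 2 CCAAT runs. GINS1 (chr20:25407423-25407722, plus strand), a subunit of the helicase activator, and POLE2 (chr14:49688165-49688464, minus strand), a subunit of polymerase epsilon, have 1 E2F run each. PCNA, the sliding clamp (chr20:5126573-5126872, minus strand), has 1 E2F run and 3 CCAAT runs in this window, the one of its 2 windows with an E2F run. DBF4, the activator of the CDC7 kinase (chr7:87876243-87876542, plus strand), has no E2F run in this window and a CHR run across its start site.
CLSPN: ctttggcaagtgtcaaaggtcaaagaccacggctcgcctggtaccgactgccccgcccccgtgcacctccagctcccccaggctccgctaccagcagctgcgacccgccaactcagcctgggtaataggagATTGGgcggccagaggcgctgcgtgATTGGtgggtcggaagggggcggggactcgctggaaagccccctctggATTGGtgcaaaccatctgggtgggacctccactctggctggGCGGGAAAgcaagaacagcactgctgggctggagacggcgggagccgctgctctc
MCM6: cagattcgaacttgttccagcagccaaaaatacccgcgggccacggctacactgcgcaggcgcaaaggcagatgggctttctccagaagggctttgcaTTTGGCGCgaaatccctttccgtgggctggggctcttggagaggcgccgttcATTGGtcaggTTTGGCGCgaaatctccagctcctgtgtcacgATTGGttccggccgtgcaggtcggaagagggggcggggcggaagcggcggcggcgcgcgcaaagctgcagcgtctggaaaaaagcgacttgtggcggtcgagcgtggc
GINS1: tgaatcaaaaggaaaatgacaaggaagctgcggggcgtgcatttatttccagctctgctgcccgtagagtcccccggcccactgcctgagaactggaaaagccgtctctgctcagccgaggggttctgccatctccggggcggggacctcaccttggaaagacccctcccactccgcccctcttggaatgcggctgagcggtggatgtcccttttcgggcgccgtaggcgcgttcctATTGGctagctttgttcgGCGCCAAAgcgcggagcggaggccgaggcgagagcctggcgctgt
PCNA: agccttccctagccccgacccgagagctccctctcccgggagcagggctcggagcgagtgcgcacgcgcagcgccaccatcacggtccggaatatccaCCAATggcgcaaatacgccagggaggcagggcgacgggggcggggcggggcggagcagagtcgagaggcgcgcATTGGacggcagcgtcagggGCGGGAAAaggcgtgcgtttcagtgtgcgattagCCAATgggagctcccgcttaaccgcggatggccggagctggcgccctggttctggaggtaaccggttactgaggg
POLE2: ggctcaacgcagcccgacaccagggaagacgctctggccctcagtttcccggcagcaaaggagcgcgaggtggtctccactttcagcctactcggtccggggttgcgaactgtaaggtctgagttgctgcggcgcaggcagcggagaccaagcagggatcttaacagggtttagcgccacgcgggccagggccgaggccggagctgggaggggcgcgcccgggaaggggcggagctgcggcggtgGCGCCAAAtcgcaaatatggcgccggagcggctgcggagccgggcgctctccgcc
DBF4: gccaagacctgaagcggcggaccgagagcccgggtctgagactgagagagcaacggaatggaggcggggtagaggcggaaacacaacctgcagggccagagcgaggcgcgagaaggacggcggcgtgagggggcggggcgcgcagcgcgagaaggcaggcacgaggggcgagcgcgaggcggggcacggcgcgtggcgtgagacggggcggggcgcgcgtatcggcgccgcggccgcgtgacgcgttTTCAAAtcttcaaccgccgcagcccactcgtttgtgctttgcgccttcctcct

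Promoter windows were found for 47 of the 55 members, 63 windows in all. None was found for CCNE2, E2F8, MCM4, MCM5, GINS4, POLD3, RPA2 and RPA3. An E2F run stood in 22 of the 63 windows (34.9%), against 572 of 20109 windows of all genes tested (2.84%) and 1 of 44 windows of genes of G2 and mitosis (2.27%). CHR letters showed the opposite split, with 2 member windows (3.17%), 27 windows of the G2 and mitosis list (61.4%) and 12.3% of all windows. CCAAT stood in 57.1% of member windows, 72.7% of the G2 and mitosis windows and 34.6% of all windows. Median GC content was 65.0% in member windows and 62.67% in all windows. These are counts of letters in short windows and say nothing about which factor is bound.

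The values are log2 signals that the authors made with RMA, a method that summarises and normalises probe intensities. Array medians lay between 5.73 and 5.83, and 52 of the 55 members had a mean signal above the median gene. Arrays of 1 group correlated at 0.996 to 0.998 over genes (Pearson's r, genes not being independent replicates), and arrays from 2 groups at 0.988 to 0.995. OLR1 signal was 5.35 to 6.19 on scramble arrays and 4.33 to 4.66 on OLR1 siRNA arrays, without overlap. It fell 2.28-fold in untreated cells (limma adjusted p = 0.000484) and 2.64-fold with UVPAPC (adjusted p = 0.000162). On scramble arrays OLR1 signal lay above the array median in replicate 1 of each group and below it in the other replicates. The signal on OLR1 siRNA arrays lay below the array medians and was not shown to be above background, so it does not measure how much OLR1 RNA remained. Of 14 measured sebocyte and epithelial markers 0 had a mean under 6, with KRT8 at 12.45, EPCAM at 11.68 and PPARG, a regulator of lipid synthesis, at 8.10. Means under 6 were found for 8 of 9 fibroblast, 4 of 6 endothelial, 5 of 6 leukocyte and 4 of 6 melanocyte markers. The markers above 6 were CDH5 at 8.19 and CLDN5 at 6.20 (endothelial), CD68 at 9.62 (leukocyte), MITF at 8.41 and SOX10 at 6.42 (melanocyte) and COL1A1 at 7.15 (fibroblast). These RNAs come from whole cultures, so a larger share of cells in S phase and more RNA per cell cannot be told apart. Nothing says that the 3 replicates of a group were separate cultures, so the p-values below reflect the spread between these arrays only, and that spread may be technical. Below, rose and fell are used for a limma adjusted p under 0.05 over all 18417 genes.

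A large part of the replication machinery rose with OLR1 siRNA, in untreated cells and in cells with UVPAPC. In untreated cells 27 of the 55 genes rose and 0 fell, while 5.29% of all genes tested rose and 4.42% fell. With UVPAPC 38 rose and 0 fell, against 7.94% and 4.56% of all genes. All 27 genes of the first comparison were among the 38 of the second. These comparisons share no arrays, but the fit gives each gene 1 estimate of spread for both, so the calls are not independent. The rises were modest: the median log2 fold change over the 55 genes was 0.24 untreated and 0.29 with UVPAPC, where the median of all genes was 0.00 and -0.01. The fitted value was above 0 for 55 of 55 members in both, against 49.5% and 46.9% of all genes, and for 53 and 54 after repeated quantile normalization or cyclic loess. Most members are bright, and a separate fit of only the genes above the median signal called more genes than the main fit. In it 1280 genes rose untreated and 1892 with UVPAPC, against 975 and 1462 of all genes. Falls numbered 956 and 867, against 814 and 840. Of the 52 members in that fit 32 rose untreated. The fit has its own adjustment for the number of genes, so it does not show where the calls of the main fit lie. The shares of all genes above are not those of genes as bright as the members. The number past the threshold depended on single arrays. Untreated, it was 15 without scramble untreated replicate 2, 17 without scramble untreated replicate 3, 14 without OLR1 siRNA untreated replicate 1 and 15 without OLR1 siRNA untreated replicate 2, fits in which 528 to 606 of all genes rose in place of 975. With UVPAPC it was 24 without scramble UVPAPC replicate 3 and 24 without OLR1 siRNA UVPAPC replicate 1, where 783 and 769 of all genes rose in place of 1462.

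**Figure D1:**
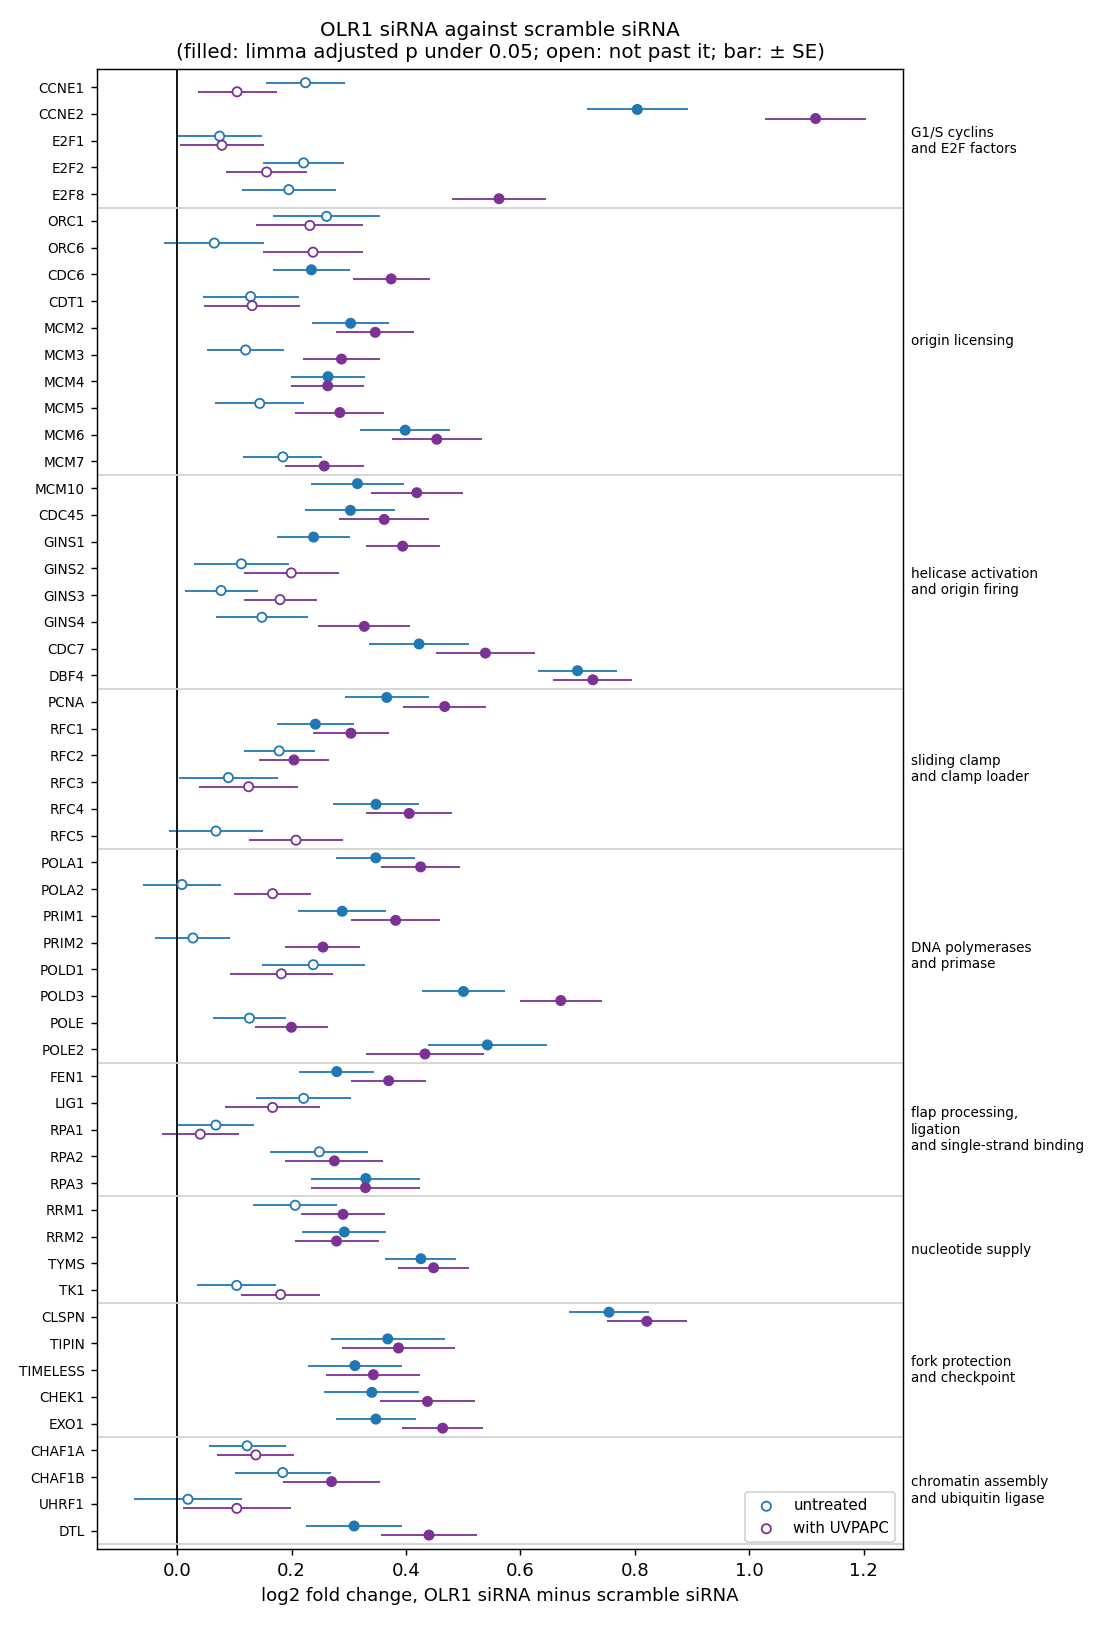
Log2 fold change of OLR1 siRNA minus scramble siRNA for the 55 replication genes, ordered by their role, in untreated cells and with UVPAPC. Points are limma estimates from 3 arrays per group, bars are ± SE, and filled points passed an adjusted p of 0.05. All 55 estimates lie above 0 in both comparisons, with CCNE2 farthest to the right at 0.80 and 1.12.

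With UVPAPC a few of the replication genes fell and most did not pass the test. With scramble siRNA 8 of the 55 genes fell (CCNE2, E2F8, GINS1, CDC7, RFC5, POLD3, FEN1 and CLSPN) and 0 rose, against 4.64% and 2.67% of all genes tested. With OLR1 siRNA 6 fell (CCNE2, E2F2, E2F8, CDC7, POLD3 and CLSPN) and ORC6 rose, against 3.25% and 3.46% of all genes. CCNE2, E2F8, CDC7, POLD3 and CLSPN thus fell under both siRNAs, on separate arrays but with 1 shared estimate of spread per gene. The median log2 fold change was -0.12 with scramble and -0.08 with OLR1 siRNA, beside 0.00 and -0.01 for all genes. Values above 0 were found for 7 members with scramble and 16 with OLR1 siRNA, where 49.4% and 45.5% of all genes had one. With OLR1 siRNA the number of members that fell was 2 without OLR1 siRNA untreated replicate 1 and 2 without replicate 2 of that group. Without these arrays 390 and 399 of all genes fell, in place of 598. The single rise, of ORC6, was lost without either of these arrays and without OLR1 siRNA UVPAPC replicate 1.

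**Figure D2:**
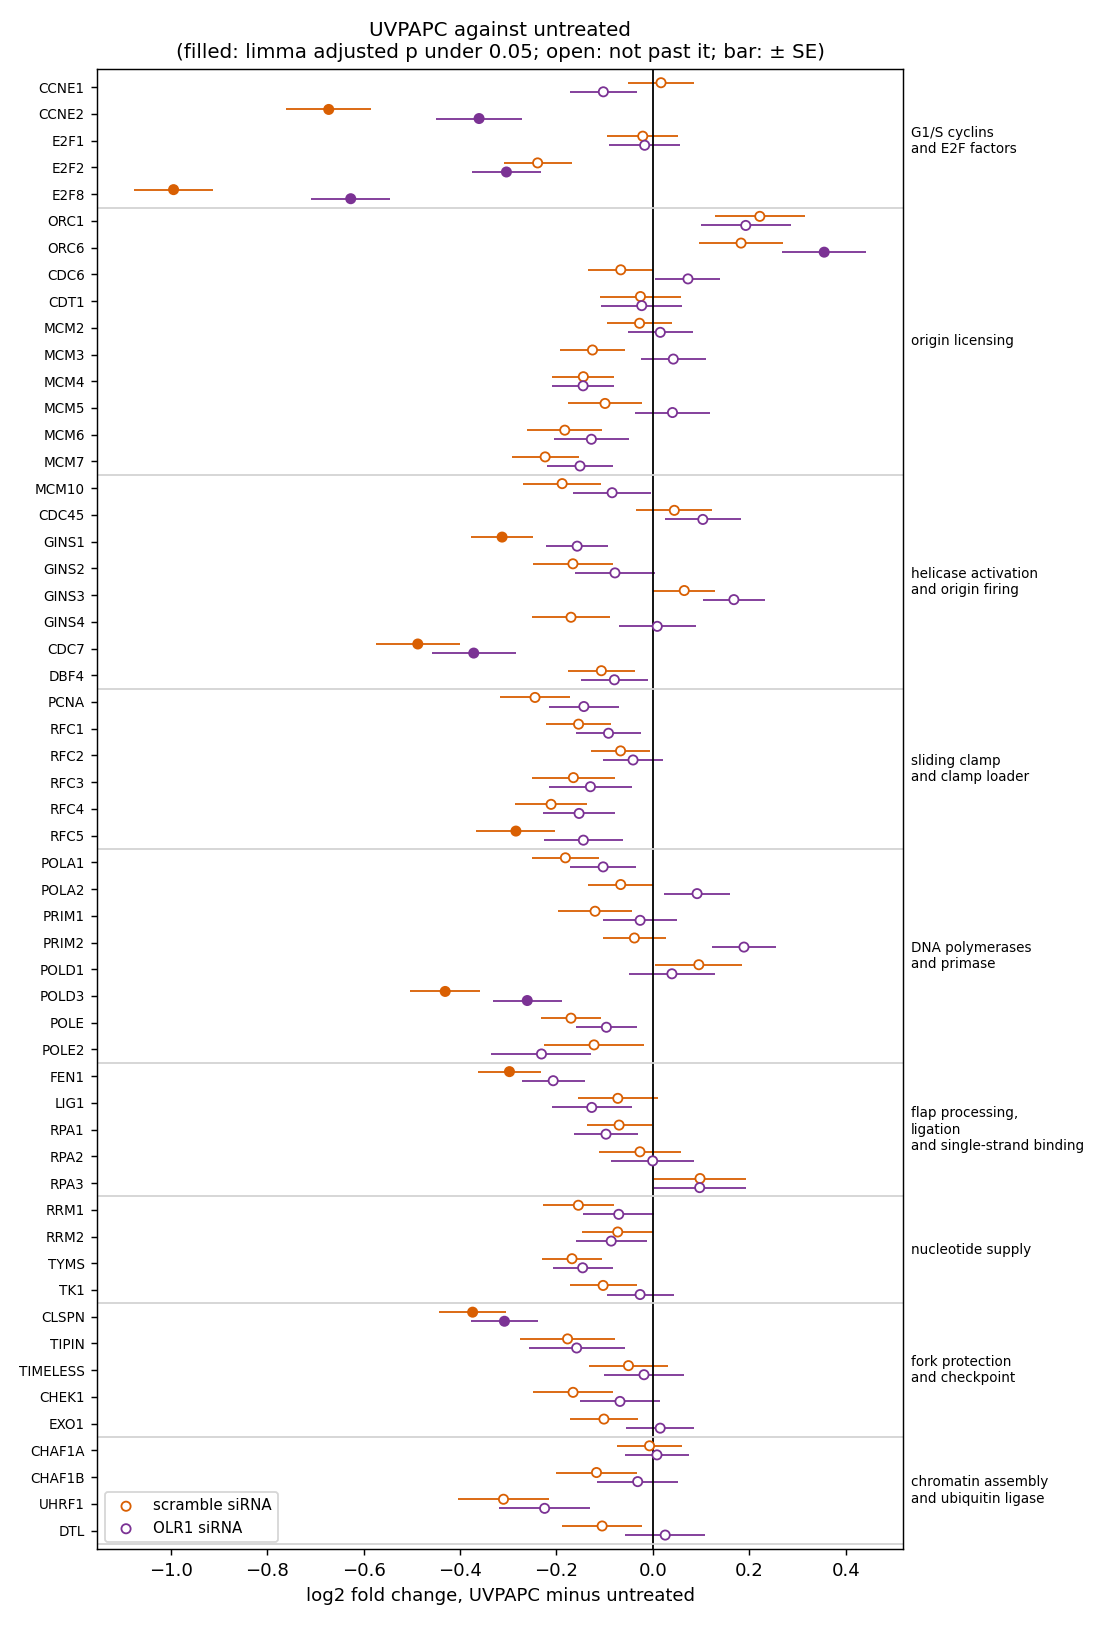
Log2 fold change of UVPAPC minus untreated for the same 55 genes, with scramble and with OLR1 siRNA. Points are limma estimates from 3 arrays per group, bars are ± SE, and filled points passed an adjusted p of 0.05. E2F8 lies farthest to the left (-0.99 with scramble and -0.63 with OLR1 siRNA), followed by CCNE2 with scramble (-0.67) and by CDC7 (-0.37) and CCNE2 (-0.36) with OLR1 siRNA, and most other points lie within 0.3 of 0.

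Among the cyclins and E2F factors, CCNE2 and E2F8 differed most with UVPAPC on scramble arrays and between siRNAs in cells with UVPAPC, while CCNE1 and E2F1 passed no test. With OLR1 siRNA in untreated cells CCNE2 alone passed, and E2F8 (0.20) was no larger than CCNE1 (0.22) and E2F2 (0.22). CCNE2 encodes cyclin E2, which activates CDK2 at the G1/S border. Its log2 signal was 7.84, 7.68 and 7.68 in scramble untreated cells and 7.04, 7.20 and 6.95 with UVPAPC, and 8.61, 8.65 and 8.36 in OLR1 siRNA untreated cells and 8.13, 8.25 and 8.16 with UVPAPC. The 4 groups did not overlap: OLR1 siRNA untreated was highest and scramble with UVPAPC lowest. CCNE2 rose 1.75-fold with OLR1 siRNA in untreated cells (log2 fold change 0.80, SE 0.09, adjusted p = 2.5e-05) and 2.17-fold with UVPAPC (log2 fold change 1.12, SE 0.09, adjusted p = 2.13e-06). UVPAPC lowered it 1.59-fold with scramble siRNA (log2 fold change -0.67, SE 0.09, adjusted p = 0.000156) and 1.28-fold with OLR1 siRNA (log2 fold change -0.36, SE 0.09, adjusted p = 0.0199). This last call was lost in 5 of the 23 alternatives. CCNE1, the gene of cyclin E1, had log2 fold changes of 0.22 untreated and 0.10 with UVPAPC for OLR1 siRNA (adjusted p = 0.0521 and 0.347) and of 0.02 with scramble and -0.10 with OLR1 siRNA for UVPAPC, none past the threshold.

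E2F8, an atypical E2F that represses G1/S genes, gave the largest fall of the set with UVPAPC. It read 7.89, 7.78 and 7.87 in scramble untreated cells and 6.91, 6.92 and 6.74 with UVPAPC. With OLR1 siRNA it read 8.12, 8.16 and 7.85 untreated and 7.42, 7.43 and 7.41 with UVPAPC. The UVPAPC arrays lay below the untreated arrays under either siRNA, and the untreated arrays of the 2 siRNAs overlapped. E2F8 fell 1.99-fold with scramble siRNA (log2 fold change -0.99, SE 0.08, adjusted p = 1.35e-06) and 1.54-fold with OLR1 siRNA (log2 fold change -0.63, SE 0.08, adjusted p = 0.000152), and both calls held in all 23 alternatives. OLR1 siRNA raised it with UVPAPC (log2 fold change 0.56, SE 0.08, adjusted p = 0.000474) and its untreated difference did not pass (0.20, adjusted p = 0.16). E2F2, an activating E2F, read 7.14, 7.11 and 7.03 with OLR1 siRNA untreated and 6.79, 6.78 and 6.79 with UVPAPC, a fall without overlap (log2 fold change -0.30, SE 0.07, adjusted p = 0.0142). On scramble arrays E2F2 read 6.90, 6.77 and 6.94 untreated and 6.71, 6.52 and 6.67 with UVPAPC (adjusted p = 0.0524). E2F1, the best known activator of the family, had log2 fold changes between -0.02 and 0.08 in the 5 group comparisons and passed none.

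**Figure D3:**
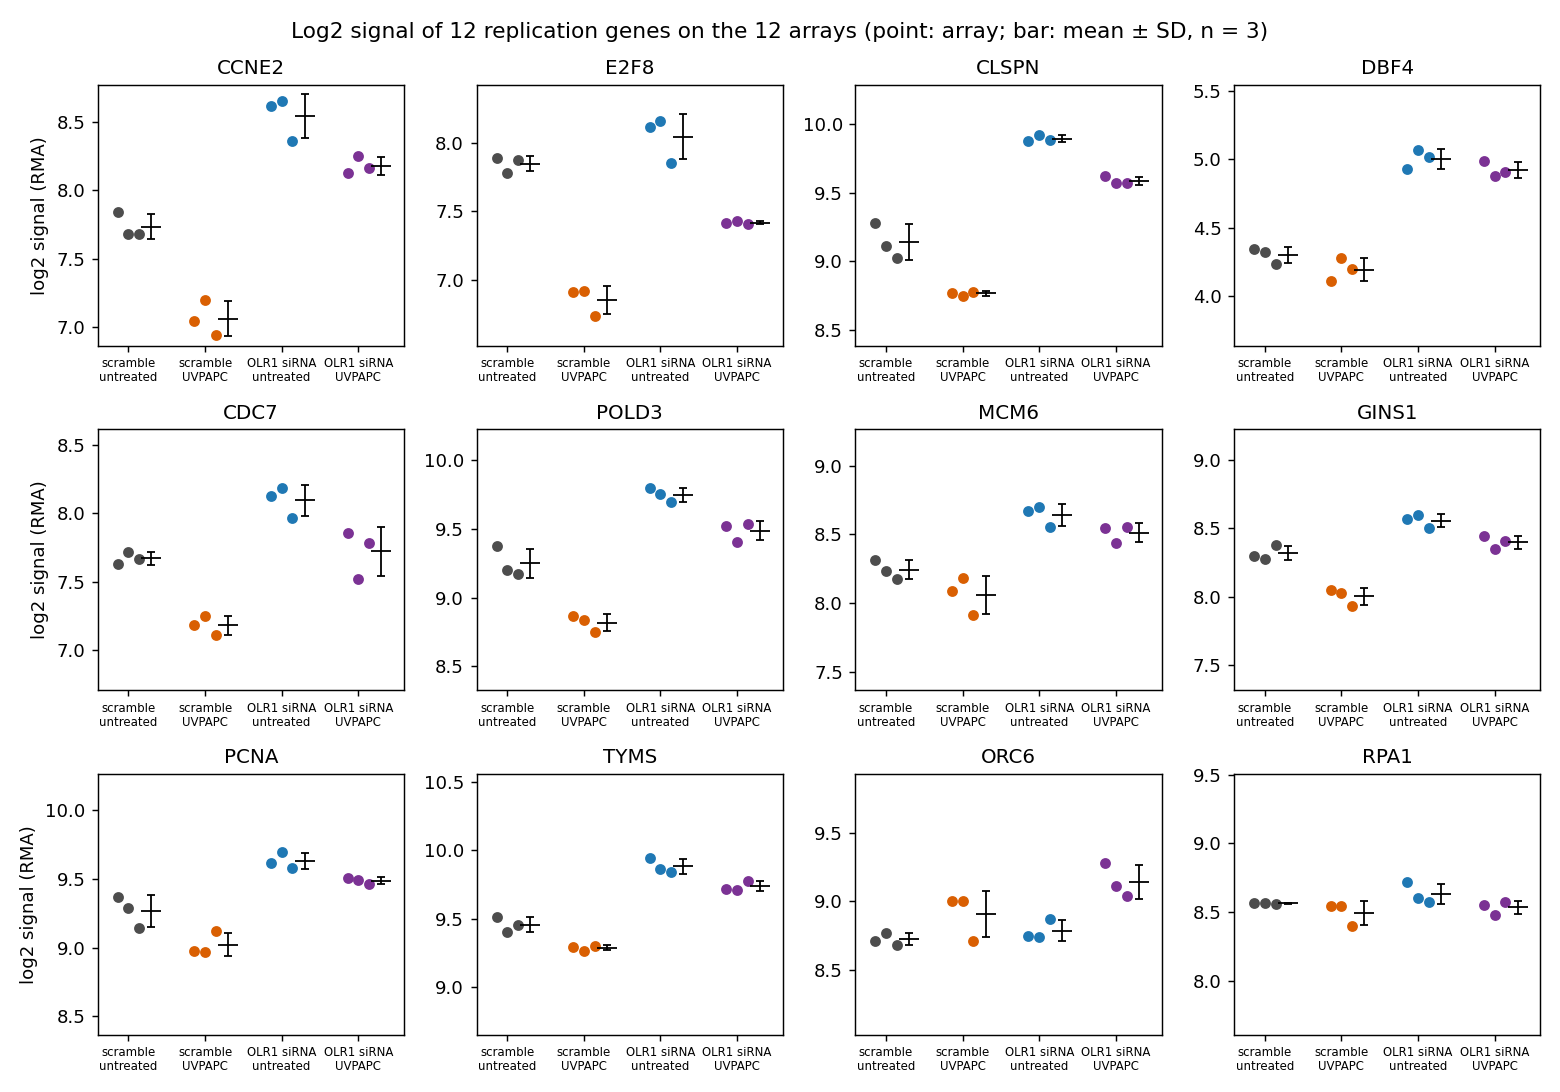
Log2 signal of 12 of the replication genes on each of the 12 arrays, by group. Points are arrays, the horizontal mark is the mean of 3 and the bar ± SD, and every panel spans the same number of log2 units. CCNE2, CLSPN and POLD3 are highest in OLR1 siRNA untreated cells and lowest in scramble cells with UVPAPC, DBF4 is split by siRNA, and RPA1 differs little between groups.

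In origin licensing, CDC6, MCM2, MCM4 and MCM6 rose with OLR1 siRNA in untreated cells, and MCM3, MCM5 and MCM7 joined them with UVPAPC. MCM6 moved most of the helicase subunits. It read 8.32, 8.23 and 8.18 on scramble and 8.67, 8.70 and 8.55 on OLR1 siRNA untreated arrays (log2 fold change 0.40, SE 0.08, adjusted p = 0.0037). With UVPAPC it read 8.09, 8.18 and 7.91 against 8.55, 8.44 and 8.55 (log2 fold change 0.45, SE 0.08, adjusted p = 0.00158). The siRNA groups were apart in both settings. For the genes that follow, arrays are given as scramble against OLR1 siRNA unless stated. MCM2 read 9.22, 9.28 and 9.39 against 9.64, 9.54 and 9.62 untreated and, with UVPAPC, 9.31, 9.30 and 9.18 against 9.63, 9.63 and 9.58. MCM4 read 9.25, 9.16 and 9.14 against 9.45, 9.48 and 9.41 untreated and, with UVPAPC, 9.11, 8.97 and 9.04 against 9.34, 9.26 and 9.31. The log2 fold changes of OLR1 siRNA were 0.30 untreated and 0.35 with UVPAPC for MCM2 and 0.26 untreated and 0.26 with UVPAPC for MCM4.

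The other helicase subunits passed only with UVPAPC, and the difference between the settings was not past the threshold for any of them. MCM3 read 8.99, 8.94 and 8.92 against 9.13, 9.00 and 9.08 untreated and, with UVPAPC, 8.83, 8.90 and 8.74 against 9.09, 9.06 and 9.19. MCM5 read 10.08, 10.06 and 10.23 against 10.33, 10.23 and 10.23 untreated and, with UVPAPC, 10.08, 10.13 and 9.86 against 10.33, 10.27 and 10.32. MCM7 read 10.24, 10.21 and 10.20 against 10.50, 10.31 and 10.40 untreated and, with UVPAPC, 10.01, 10.07 and 9.90 against 10.26, 10.20 and 10.29. Their log2 fold changes with UVPAPC were 0.29, 0.28 and 0.26 (adjusted p = 0.0119, 0.0253 and 0.0234), and the calls for MCM5 and MCM7 were each lost in 7 alternatives. CDC6, the ATPase that loads the helicase, read 9.69, 9.76 and 9.79 against 9.94, 9.97 and 10.03 untreated (adjusted p = 0.0375) and, with UVPAPC, 9.69, 9.75 and 9.60 against 10.12, 10.07 and 9.97 (adjusted p = 0.00213). The untreated call for CDC6 was lost in 11 alternatives. CDT1, its partner in loading, had log2 fold changes of 0.13 untreated and 0.13 with UVPAPC and passed no test.

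The origin recognition subunits ORC1 and ORC6 had values above 0 with UVPAPC, unlike most of the set. ORC6 read 8.75, 8.74 and 8.87 with OLR1 siRNA untreated and 9.28, 9.11 and 9.04 with UVPAPC, a rise without overlap (log2 fold change 0.36, SE 0.09, adjusted p = 0.0198). With scramble siRNA it read 8.71, 8.77 and 8.68 untreated against 9.01, 9.00 and 8.71 with UVPAPC, which overlapped (adjusted p = 0.263). ORC1, the ATPase subunit, read 7.77, 7.72 and 7.52 untreated against 8.04, 7.90 and 7.74 with UVPAPC on scramble arrays. With OLR1 siRNA ORC1 read 7.88, 8.02 and 7.89 against 8.27, 8.02 and 8.08. Its 4 single differences were all positive, from 0.19 to 0.26, and none passed.

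Of the factors that activate the helicase, DBF4 had the largest OLR1 siRNA difference, on a dim signal that lay below the array medians and was not shown to be above background. DBF4 read 4.34, 4.32 and 4.24 with scramble against 4.93, 5.06 and 5.02 with OLR1 siRNA untreated and, with UVPAPC, 4.11, 4.28 and 4.20 against 4.98, 4.88 and 4.90. It was split by siRNA with no overlap, and rose untreated (log2 fold change 0.70, SE 0.07, adjusted p = 9.05e-06) and with UVPAPC (log2 fold change 0.73, SE 0.07, adjusted p = 9.72e-06). These are differences of the deposited signal, and the change in RNA may be of another size. The UVPAPC differences of -0.11 with scramble and -0.08 with OLR1 siRNA did not pass (adjusted p = 0.45 and 0.605). CDC7, the kinase that DBF4 activates, read 7.63, 7.72 and 7.67 untreated and 7.18, 7.25 and 7.11 with UVPAPC on scramble arrays. On OLR1 siRNA arrays it read 8.13, 8.19 and 7.96 untreated and 7.86, 7.52 and 7.79 with UVPAPC. It rose with OLR1 siRNA (log2 fold change 0.42 untreated and 0.54 with UVPAPC, adjusted p = 0.00525 and 0.001) and fell with UVPAPC (-0.49 with scramble and -0.37 with OLR1 siRNA, adjusted p = 0.00205 and 0.0149). Both subunits of this kinase were therefore higher with OLR1 siRNA, and CDC7 alone of the pair passed with UVPAPC.

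GINS1 and CDC45 form part of the active helicase. GINS1 read 8.30, 8.28 and 8.37 untreated against 8.05, 8.03 and 7.93 with UVPAPC on scramble arrays. It read 8.57, 8.60 and 8.50 untreated against 8.44, 8.35 and 8.41 with UVPAPC on OLR1 siRNA arrays. It rose with OLR1 siRNA (0.24 untreated and 0.39 with UVPAPC) and fell with UVPAPC on scramble arrays (log2 fold change -0.31, SE 0.06, adjusted p = 0.00626). CDC45 read 8.18, 8.05 and 8.21 against 8.50, 8.45 and 8.39 untreated and, with UVPAPC, 8.23, 8.24 and 8.10 against 8.66, 8.40 and 8.59, and rose in both (0.30 untreated and 0.36 with UVPAPC). MCM10, which helps the helicase to start, read 8.90, 8.81 and 8.86 against 9.17, 9.21 and 9.14 untreated and, with UVPAPC, 8.72, 8.79 and 8.50 against 9.18, 8.96 and 9.12, and rose in both (0.32 untreated and 0.42 with UVPAPC). GINS4 read 6.84, 6.85 and 6.99 against 7.11, 7.04 and 6.97 untreated and, with UVPAPC, 6.84, 6.70 and 6.63 against 7.15, 6.92 and 7.09, where it rose (log2 fold change 0.33, SE 0.08, adjusted p = 0.0144). GINS3 read 7.49, 7.53 and 7.53 against 7.62, 7.61 and 7.55 untreated and, with UVPAPC, 7.61, 7.61 and 7.53 against 7.85, 7.72 and 7.72. It passed in none of the 4 comparisons of 1 agent. GINS2 had values of 0.11 untreated and 0.20 with UVPAPC, neither past the threshold. The 4 subunits of 1 complex thus gave unequal calls, with untreated OLR1 siRNA differences from 0.08 for GINS3 to 0.24 for GINS1.

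PCNA and 2 of the 5 RFC subunits that load it rose with OLR1 siRNA in both settings. PCNA read 9.37, 9.29 and 9.14 against 9.62, 9.70 and 9.58 untreated and, with UVPAPC, 8.98, 8.97 and 9.12 against 9.51, 9.49 and 9.46. OLR1 siRNA arrays lay above scramble arrays in both settings (log2 fold change 0.37, SE 0.07, adjusted p = 0.0042; 0.47, adjusted p = 0.000779). RFC4 read 9.43, 9.31 and 9.26 against 9.68, 9.72 and 9.64 untreated and, with UVPAPC, 9.16, 9.21 and 8.98 against 9.60, 9.47 and 9.51, and rose in both (0.35 untreated and 0.41 with UVPAPC). RFC1, the large subunit of the loader, read 8.96, 8.86 and 8.85 against 9.14, 9.09 and 9.17 untreated and, with UVPAPC, 8.79, 8.77 and 8.66 against 9.11, 8.98 and 9.04, and rose in both (0.24 untreated and 0.30 with UVPAPC). The untreated call for RFC1 was lost in 5 alternatives. RFC2 read 9.21, 9.18 and 9.18 against 9.34, 9.36 and 9.41 untreated and, with UVPAPC, 9.21, 9.08 and 9.08 against 9.34, 9.33 and 9.31. Its rise with UVPAPC was small (0.20, adjusted p = 0.0409) and was lost in 14 alternatives. RFC5 read 9.02, 8.95 and 9.02 untreated and 8.87, 8.68 and 8.58 with UVPAPC on scramble arrays, a fall that lay close to the threshold (log2 fold change -0.28, SE 0.08, adjusted p = 0.0471) and was lost in 13 alternatives. On OLR1 siRNA arrays RFC5 read 9.13, 9.02 and 9.04 untreated against 9.01, 8.79 and 8.96 with UVPAPC, a difference that did not pass (adjusted p = 0.38). RFC3 passed no test, with 0.09 untreated and 0.13 with UVPAPC.

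Polymerases alpha, delta and epsilon each had a subunit that rose with OLR1 siRNA in both settings and a subunit that did not pass in untreated cells. POLD3, an accessory subunit of polymerase delta, read 9.37, 9.20 and 9.17 untreated against 8.87, 8.84 and 8.75 with UVPAPC on scramble arrays. With OLR1 siRNA POLD3 read 9.80, 9.76 and 9.70 untreated against 9.52, 9.41 and 9.54 with UVPAPC. Its groups were in the same order as those of CCNE2, and none overlapped. POLD3 rose with OLR1 siRNA (log2 fold change 0.50, SE 0.07, adjusted p = 0.000312; 0.67 with UVPAPC, adjusted p = 3.04e-05) and fell with UVPAPC (log2 fold change -0.43, SE 0.07, adjusted p = 0.00125 with scramble; -0.26, adjusted p = 0.0391, with OLR1 siRNA). The fall with OLR1 siRNA was lost in 10 alternatives. POLD1, the catalytic subunit of polymerase delta, read 6.65, 6.66 and 6.92 against 7.09, 6.84 and 7.01 untreated and, with UVPAPC, 6.82, 6.82 and 6.87 against 7.04, 6.88 and 7.13. Its OLR1 siRNA differences of 0.24 untreated and 0.18 with UVPAPC did not pass.

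POLE2, an accessory subunit of polymerase epsilon, read 6.17, 6.05 and 6.17 against 6.62, 6.82 and 6.57 untreated and, with UVPAPC, 6.12, 6.05 and 5.85 against 6.64, 6.22 and 6.46. It rose 1.46-fold and 1.35-fold (adjusted p = 0.00312 and 0.0128). POLE, the catalytic subunit, read 8.37, 8.33 and 8.42 against 8.54, 8.50 and 8.47 untreated and, with UVPAPC, 8.14, 8.27 and 8.21 against 8.44, 8.37 and 8.40. It passed only narrowly with UVPAPC (0.20, adjusted p = 0.0493), a call lost in 17 alternatives. POLA1, the catalytic subunit of polymerase alpha, read 7.783, 7.662 and 7.679 against 8.101, 8.061 and 8.003 untreated and, with UVPAPC, 7.606, 7.484 and 7.490 against 8.047, 7.904 and 7.906, and rose in both (0.35 untreated and 0.43 with UVPAPC, adjusted p = 0.00413 and 0.00102). Its primase partner PRIM1 read 7.96, 7.86 and 7.92 against 8.17, 8.36 and 8.07 untreated and, with UVPAPC, 7.75, 7.85 and 7.78 against 8.24, 8.09 and 8.19, and rose in both (0.29 untreated and 0.38 with UVPAPC). The untreated call for PRIM1 was lost in 6 alternatives. PRIM2, the other primase subunit, read 7.44, 7.37 and 7.35 against 7.45, 7.37 and 7.42 untreated, which overlapped, and 7.34, 7.40 and 7.31 against 7.70, 7.56 and 7.55 with UVPAPC, where it rose (log2 fold change 0.25, SE 0.07, adjusted p = 0.0183). POLA2 had 0.01 untreated and 0.17 with UVPAPC and passed no test.

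FEN1, the nuclease that trims Okazaki flaps, read 10.14, 10.15 and 10.17 untreated against 9.89, 9.82 and 9.86 with UVPAPC on scramble arrays. It read 10.43, 10.49 and 10.37 against 10.22, 10.31 and 10.14 on OLR1 siRNA arrays. FEN1 rose with OLR1 siRNA (0.28 untreated and 0.37 with UVPAPC, adjusted p = 0.0124 and 0.00195) and fell with UVPAPC on scramble arrays (log2 fold change -0.30, SE 0.07, adjusted p = 0.00978). Of the single-strand binding trimer RPA, RPA3 read 5.98, 5.90 and 5.74 against 6.17, 6.32 and 6.11 untreated and, with UVPAPC, 6.03, 5.97 and 5.91 against 6.49, 6.11 and 6.30, and rose in both (0.33 untreated and 0.33 with UVPAPC). The RPA3 calls were lost in 6 alternatives untreated and 7 with UVPAPC, of the 22 that tested it. RPA2 read 7.84, 7.71 and 7.67 against 7.99, 8.03 and 7.94 untreated and, with UVPAPC, 7.78, 7.68 and 7.67 against 8.17, 7.80 and 7.99, and passed with UVPAPC alone (adjusted p = 0.0468, lost in 14 alternatives). The large subunit RPA1 (0.07 untreated and 0.04 with UVPAPC) and the ligase LIG1 (0.22 untreated and 0.17 with UVPAPC) passed no test.

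Nucleotide supply rose with OLR1 siRNA through TYMS and RRM2 in both settings and RRM1 with UVPAPC. TYMS, which makes thymidylate, read 9.51, 9.40 and 9.45 against 9.94, 9.86 and 9.84 untreated and, with UVPAPC, 9.29, 9.27 and 9.30 against 9.72, 9.71 and 9.78. The groups were well apart in both settings (log2 fold change 0.43, SE 0.06, adjusted p = 0.000353; 0.45, adjusted p = 0.000309). RRM2, the S phase subunit of ribonucleotide reductase, read 9.77, 9.59 and 9.63 against 9.99, 10.00 and 9.87 untreated and, with UVPAPC, 9.66, 9.53 and 9.58 against 9.90, 9.77 and 9.93 (0.29 untreated and 0.28 with UVPAPC). RRM1, its large subunit, read 10.04, 9.88 and 9.86 against 10.13, 10.17 and 10.10 untreated and, with UVPAPC, 9.78, 9.89 and 9.65 against 10.04, 10.05 and 10.10 (0.21 untreated and 0.29 with UVPAPC, adjusted p = 0.0926 and 0.0166). The calls of RRM2 were lost in 4 alternatives untreated and 6 with UVPAPC. TK1, the thymidine kinase, passed no test (0.10 untreated and 0.18 with UVPAPC).

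All 5 fork protection and checkpoint genes rose with OLR1 siRNA in both settings, the one functional group here in which every gene did. The untreated calls of TIMELESS, TIPIN and CHEK1 were lost in 7, 5 and 3 of the 23 alternatives. Without scramble untreated replicate 3, or without OLR1 siRNA untreated replicate 1, all 3 were lost at once, which left 2 of 5. CLSPN, which couples stalled forks to CHEK1, read 9.28, 9.11 and 9.02 in scramble untreated cells and 9.88, 9.92 and 9.88 with OLR1 siRNA. With UVPAPC it read 8.77, 8.75 and 8.78 and 9.62, 9.57 and 9.57. The 4 groups did not overlap. CLSPN rose 1.69-fold with OLR1 siRNA in untreated cells (log2 fold change 0.75, SE 0.07, adjusted p = 4.63e-06) and 1.77-fold with UVPAPC (log2 fold change 0.82, SE 0.07, adjusted p = 3.01e-06). It fell with UVPAPC by log2 fold changes of -0.37 with scramble and -0.31 with OLR1 siRNA (adjusted p = 0.00285 and 0.0113). A second CLSPN probe set gave 0.63 and 0.64 for OLR1 siRNA and -0.32 and -0.31 for UVPAPC.

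EXO1, an exonuclease that resects DNA, read 8.80, 8.79 and 8.78 against 9.10, 9.11 and 9.19 untreated and, with UVPAPC, 8.79, 8.71 and 8.57 against 9.23, 9.15 and 9.08 (0.35 untreated and 0.46 with UVPAPC). CHEK1, the checkpoint kinase, read 8.27, 8.18 and 8.06 against 8.58, 8.55 and 8.41 untreated and, with UVPAPC, 7.98, 8.11 and 7.92 against 8.46, 8.31 and 8.55 (0.34 untreated and 0.44 with UVPAPC). TIMELESS and TIPIN travel with the fork as a pair. TIMELESS read 7.21, 7.15 and 7.24 against 7.53, 7.49 and 7.52 untreated and, with UVPAPC, 7.16, 7.26 and 7.04 against 7.66, 7.34 and 7.49 (0.31 untreated and 0.34 with UVPAPC). TIPIN read 8.71, 8.49 and 8.48 against 8.98, 8.84 and 8.96 untreated and, with UVPAPC, 8.38, 8.45 and 8.31 against 9.02, 8.61 and 8.67 (0.37 untreated and 0.39 with UVPAPC). In each of the 4 the OLR1 siRNA arrays lay above the scramble arrays in both settings.

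Among the chromatin genes DTL, which directs a ubiquitin ligase to CDT1, read 9.62, 9.60 and 9.64 against 9.99, 9.86 and 9.93 untreated and, with UVPAPC, 9.63, 9.62 and 9.30 against 10.02, 9.90 and 9.94. It rose in both settings (0.31 untreated and 0.44 with UVPAPC, adjusted p = 0.0276 and 0.00311), and its untreated call was lost in 6 alternatives. CHAF1B, a subunit of the histone chaperone CAF-1, read 8.26, 8.19 and 8.18 against 8.48, 8.37 and 8.33 untreated and, with UVPAPC, 8.23, 8.13 and 7.92 against 8.49, 8.26 and 8.33. It passed with UVPAPC alone (adjusted p = 0.0467), a call lost in 15 alternatives. CHAF1A (0.12 untreated and 0.14 with UVPAPC) and UHRF1, which reads newly copied methylated DNA (0.02 untreated and 0.10 with UVPAPC), passed no test. The second, dimmer UHRF1 probe set read 5.19 to 5.61 on the 12 arrays.

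The functional groups differed in size of change, and these differences were not tested. The median log2 fold change of OLR1 siRNA in untreated cells was 0.35 for fork protection and checkpoint, 0.27 for helicase activation, 0.22 for the cyclins and E2F factors, 0.21 for origin licensing, 0.21 for the clamp and its loader and 0.15 for the chromatin genes. The median for UVPAPC on scramble arrays was -0.24 for the cyclins and E2F factors, -0.19 for the clamp and its loader and -0.08 for origin licensing. As a mean, the cyclin and E2F group differed from scramble untreated by 0.30 with OLR1 siRNA untreated (arrays from 0.20 to 0.36) and by -0.38 on scramble arrays with UVPAPC (arrays from -0.42 to -0.33). The mean of the licensing group differed by -0.05 on scramble arrays with UVPAPC, with arrays from -0.15 to 0.01. Over all 55 genes the array means were 8.37 to 8.42 in scramble untreated, 8.18 to 8.28 in scramble with UVPAPC, 8.62 to 8.68 in OLR1 siRNA untreated and 8.51 to 8.63 in OLR1 siRNA with UVPAPC. The OLR1 siRNA groups overlapped each other, and no other pair did.

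**Figure D4:**
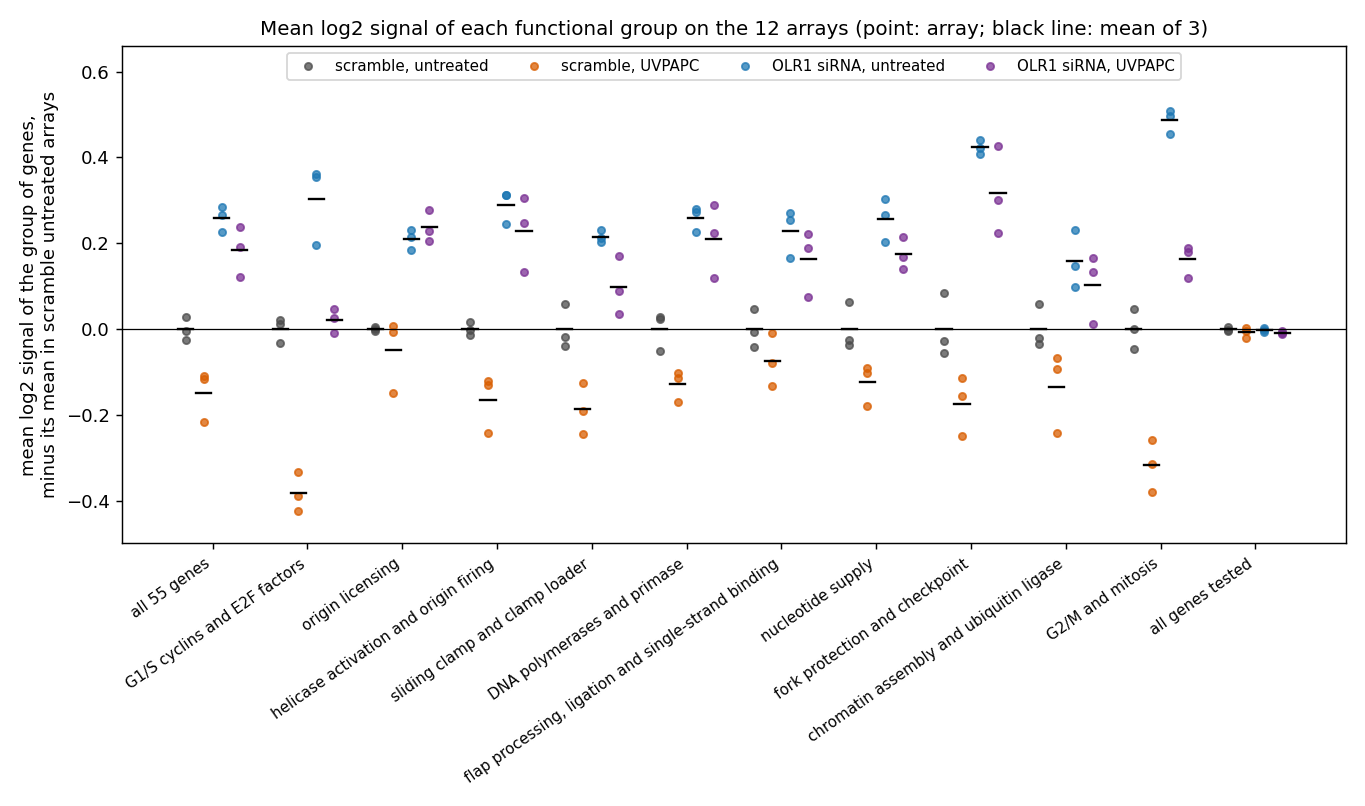
Mean log2 signal of each functional group of the 55 genes on every array, minus the mean of the 3 scramble untreated arrays. Points are arrays and black lines the means of 3, with genes of G2 and mitosis and all genes tested for reference. The cyclin and E2F group lies lowest with scramble and UVPAPC (-0.38), fork protection and checkpoint genes lie highest of the 9 groups with OLR1 siRNA, and all genes tested stay at 0.

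The size of a gene's change carried over between comparisons that share no arrays. Across the 55 genes, which are not independent replicates, the OLR1 siRNA effect untreated and with UVPAPC had a Pearson's r of 0.884 and a Spearman's rho of 0.836, beside an r of 0.718 over all genes. The UVPAPC effect with scramble and with OLR1 siRNA had an r of 0.886 and a rho of 0.835, beside 0.707 over all genes. The siRNA and the UVPAPC comparisons share arrays, so their values are set side by side only. CCNE2, CDC7, POLD3 and CLSPN fell with UVPAPC under both siRNAs and rose with OLR1 siRNA in both settings. DBF4, TYMS, EXO1, MCM2 and POLA1 were among the members that rose with OLR1 siRNA in both settings and passed in neither UVPAPC comparison. Not passing does not show that UVPAPC left them unchanged. TYMS was lower on all UVPAPC arrays under both siRNAs (-0.17 with scramble and -0.15 with OLR1 siRNA). The other named genes overlapped under at least 1 siRNA. CCNE1, E2F1, CDT1, GINS2, RFC3, POLA2, LIG1, RPA1, TK1, CHAF1A and UHRF1 passed none of the 6 comparisons.

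Members with and without E2F letters in the promoter window were set side by side in the 4 comparisons of 1 agent, and the differences between them were not tested. Of the 22 members with an E2F run, 11 rose with OLR1 siRNA untreated and 14 with UVPAPC, with medians of 0.23 and 0.33. Of the 25 with a window but no run, 12 and 16 rose, with medians of 0.24 and 0.28. Of all genes 5.29% and 7.94% rose. With UVPAPC on scramble arrays 3 of the 22 and 2 of the 25 fell, with medians of -0.17 and -0.07, where 4.64% of all genes fell. CCNE2, E2F8 and POLD3 fell with UVPAPC under both siRNAs but had no promoter window, so they are in neither group. With UVPAPC on OLR1 siRNA arrays 3 of the 22 fell and 0 rose, while 0 of the 25 fell and 1 rose, with medians of -0.13 and -0.03. Over all genes 3.25% fell and 3.46% rose in this comparison. CLSPN, with its run at the start site, and DBF4, a dim gene with none in its window, had 2 of the 3 largest OLR1 siRNA differences in untreated cells.

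In cells that received both OLR1 siRNA and UVPAPC, many replication genes were higher than in scramble untreated cells. Of the 55 genes 22 rose and E2F8 fell, against 8.58% and 8.1% of all genes tested, and 49 were above 0, against 46.2% of all genes. The median was 0.19. The dim DBF4 led (log2 fold change 0.62, SE 0.07, adjusted p = 1.37e-05), followed by ORC1 (0.45), CLSPN (0.45), CCNE2 (0.44) and RPA3 (0.43). E2F8 was the exception (log2 fold change -0.43, SE 0.08, adjusted p = 0.00164). The count of rises was 13 without scramble untreated replicate 2 and 11 without OLR1 siRNA UVPAPC replicate 1. In these fits 1083 and 1028 of all genes rose in place of 1581. This comparison shares arrays with the 4 others, so it adds no independent evidence. Of its 22 rises, 17 were also called with OLR1 siRNA in both settings. The others were ORC1, ORC6, GINS3, PRIM2 and POLD1.

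Whether OLR1 siRNA altered the UVPAPC response was tested gene by gene as a difference of responses. Of the 55 members 0 passed, and 0% of all genes rose and 0% fell by this test (limma, adjusted p). The difference was above 0 for 45 of the 55 members, against 9509 of 18417 genes, with medians of 0.07 and 0.01. After repeated quantile normalization 37 members were above 0, with a median of 0.03. At an unadjusted p under 0.05 there were 3 of the 55 members and 1004 of all 18417 genes, nearly equal shares. The 3 members were E2F8 (difference 0.37, 95% CI 0.12 to 0.61, adjusted p = 0.882), CCNE2 (0.31, 95% CI 0.05 to 0.58, adjusted p = 0.904) and PRIM2 (0.23, 95% CI 0.03 to 0.42, adjusted p = 0.904). The 95% intervals are not adjusted for the number of genes tested. For CLSPN the difference was 0.07 (95% CI -0.14 to 0.27) and for CDC7 0.12 (95% CI -0.15 to 0.38). Intervals of this width leave the sign of most differences unsettled.

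Other genes of the same pathway, 64 of 67 measured, moved with the set in part. With OLR1 siRNA 17 rose (26.6%) and 3 fell (4.69%) untreated, beside 5.29% and 4.42% of all genes. With UVPAPC 23 rose (35.9%) and 2 fell (3.12%), beside 7.94% and 4.56%. Origin firing and replisome factors gave 6 and 8 rises among 13, among them MTBP, a partner of the firing factor TICRR (0.59 untreated and 0.55 with UVPAPC), and WDHD1, which tethers polymerase alpha to the helicase (0.49 untreated and 0.40 with UVPAPC). The largest value with UVPAPC was that of the nuclease DNA2 (0.56), which did not pass untreated (0.24). Nucleotide and histone supply gave 5 rises of 7 in both settings: DCK, a deoxycytidine kinase (0.84 untreated and 0.77 with UVPAPC), DUT, a dUTPase (0.47 untreated and 0.54 with UVPAPC), and the histone chaperones and binding proteins ASF1B (0.41 untreated and 0.51 with UVPAPC), NASP (0.36 untreated and 0.43 with UVPAPC) and SLBP (0.33 untreated and 0.29 with UVPAPC). A list of 12 with GMNN, the inhibitor of CDT1, and remaining ORC, polymerase and MCM genes gave 1 rise in each setting (8.33%), a share near that of all genes with UVPAPC. That rise was GMNN (0.41 untreated and 0.53 with UVPAPC), and none of the other 11 genes passed in these OLR1 siRNA comparisons. For UVPAPC against untreated, 1 of the 12 fell on scramble arrays and 1 rose on OLR1 siRNA arrays. Each is 8.33%, beside 4.64% and 3.46% of all genes. The highest UVPAPC difference of the list on OLR1 siRNA arrays was that of ORC3 (0.37).

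Of 10 cyclins, CDKs and activators, 2 rose and 3 fell with OLR1 siRNA untreated, and 4 rose and 2 fell with UVPAPC. SKP2, which targets the CDK inhibitor p27 for destruction, fell with OLR1 siRNA (-0.68 untreated and -0.51 with UVPAPC), as did CDK6, a partner of D cyclins (-0.54 untreated and -0.40 with UVPAPC). CCND1, the gene of cyclin D1, fell with OLR1 siRNA untreated (-0.33) and with UVPAPC under both siRNAs (-0.60 with scramble and -0.47 with OLR1 siRNA). CCNA2, the S phase cyclin, rose with OLR1 siRNA (0.60 untreated and 0.66 with UVPAPC) and fell with UVPAPC (-0.37 with scramble and -0.31 with OLR1 siRNA). Of the CDK inhibitors and RB family, 9 of 10 measured, 0 moved with OLR1 siRNA untreated. In cells with UVPAPC RB1 (0.30), RBL1 (0.35) and RBL2 (0.41) rose with OLR1 siRNA (33.3%, beside 7.94% of all genes). With UVPAPC on scramble arrays 2 of the 9 fell (22.2%, beside 4.64% of all genes), and RBL2 was lowest (-0.37). In cells with both agents against scramble untreated 0 of the 9 passed. Among E2F and DP factors E2F3 rose with OLR1 siRNA (0.38 untreated and 0.59 with UVPAPC). In cells with both agents against scramble untreated E2F3 had the highest value of the 64 genes (0.72).

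With UVPAPC on scramble arrays 12 of these 64 genes fell (18.8%) and 2 rose (3.12%), beside 4.64% and 2.67% of all genes, so the share of rises was near that of all genes. On OLR1 siRNA arrays 4 fell (6.25%) and 5 rose (7.81%), beside 3.25% and 3.46%. E2F7, the atypical partner of E2F8 (-0.38 with scramble and -0.33 with OLR1 siRNA), and TFDP1, the DP subunit of E2F dimers (-0.27 with scramble and -0.22 with OLR1 siRNA), fell under both siRNAs. ASF1A, a histone chaperone (0.53 with scramble and 0.71 with OLR1 siRNA), and TICRR (0.24 with scramble and 0.25 with OLR1 siRNA) rose under both. WEE1, the kinase that restrains CDK1, fell with UVPAPC on scramble arrays (-0.57). E2F6, a repressive E2F, rose with UVPAPC on OLR1 siRNA arrays (0.48), where 2 of the 7 E2F and DP factors rose and 2 fell.

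Genes of G2 and mitosis, 41 of 42 measured, moved in the same directions, with larger medians. CCNA2 is in this list and the one above. With OLR1 siRNA 31 rose untreated and 35 with UVPAPC, with medians of 0.52 and 0.47, and 0 fell. With UVPAPC 25 fell on scramble arrays and 23 on OLR1 siRNA arrays, with medians of -0.31 and -0.32, and 0 rose. TOP2A, the topoisomerase that untangles sister chromatids (0.89 untreated and 1.08 with UVPAPC), HMMR, a spindle protein (1.08 untreated and 1.00 with UVPAPC), and CDK1, the mitotic kinase (0.91 untreated and 1.01 with UVPAPC), were among the clearest rises. In the cells with both agents the medians were 0.16 for this list and 0.19 for the 55 replication genes. The difference between the lists was not tested.

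Some markers of other cell types moved with OLR1 siRNA beside the replication genes. CDH5, an endothelial cadherin, rose by 0.65 untreated and 0.50 with UVPAPC, CD68, a lysosomal protein of macrophages, by 0.40 untreated and 0.44 with UVPAPC, and MITF, a melanocyte regulator, by 0.26 untreated and 0.43 with UVPAPC. Each was the 1 marker of its list of 6 that passed with OLR1 siRNA. With UVPAPC the other 5 endothelial and the other 5 melanocyte markers had OLR1 siRNA differences below 0, with list medians of -0.05 and -0.23, and none of them passed. Other markers of those cells were low, with PECAM1 at 4.03, PTPRC at 3.27 and MLANA at 3.43 over the 12 arrays. List means per array ranged from 5.18 to 5.32 for 6 endothelial, 4.94 to 5.07 for 6 leukocyte, 5.06 to 5.20 for 6 melanocyte and 4.71 to 4.82 for 9 fibroblast markers over all 4 groups. Their part in the changes of the replication genes was not tested. The sebocyte and epithelial markers had list means of 9.86 to 9.99. With OLR1 siRNA 1 of the 14 rose in each setting, the integrin ITGA6 (0.26 untreated and 0.33 with UVPAPC), and 0 fell. With UVPAPC 1 rose and 2 fell under each siRNA. PLIN2, a coat protein of lipid droplets, rose (0.58 with scramble and 0.67 with OLR1 siRNA). PPARG fell under both siRNAs (-0.47 with scramble and -0.35 with OLR1 siRNA), the cadherin CDH1 fell with scramble (-0.24) and the mucin MUC1 with OLR1 siRNA (-0.34).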

How the data were processed

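Per the submitters' processing notes, the authors computed the deposited log2 signals by RMA, using Affymetrix Expression Console 1.3.1.187. The sources used here give neither the RMA settings nor the siRNA sequences. Large fold changes are compressed by RMA. The probe annotation is older than the current symbols, and near-identical genes can share probe signal. Of 33297 table entries 19460 had 1 symbol, 1754 several and 12083 none, and the highest-mean probe set per symbol left 18417 genes. A limma model (3.58.1, R 4.3.3) with 1 mean per group was fitted to the 12 arrays (default eBayes, two-sided, 8 residual and 7.66 prior degrees of freedom), with Benjamini-Hochberg adjustment over all genes within each of 6 comparisons at a threshold of 0.05. The fit was tested on simulated data. Members past the threshold in any comparison were named with their arrays, and members at an end of their functional group's range of differences by value. Members, lists and tests were chosen with earlier results of these data known. Of 207 list genes 7 had no tested probe set. The 23 alternatives were 12 left-out arrays and 11 other settings. Figures used matplotlib 3.10.9. RNA input was 100 ng. The number of arrays limits the precision.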

Additional observations from a re-analysis of the deposited data

How the results depend on the processing

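Counts of members past the threshold and their medians were recomputed under 11 settings and with each array left out, and 0 called members changed direction. Calls held under all 23 alternatives for 13 of 27 rises with OLR1 siRNA untreated, 22 of 38 with UVPAPC, 7 of 8 falls with UVPAPC on scramble arrays, 2 of 7 calls on OLR1 siRNA arrays and 12 of 23 for both agents. Falls on scramble arrays numbered 13 with a trended prior and 13 with genes above the median signal, and array weights gave 1 rise. On OLR1 siRNA arrays rises numbered 2 with genes above the median signal and 0 with all table entries. Over all genes 738 and 450 rose there, in place of 638. The median OLR1 siRNA difference with UVPAPC was 0.22 under both cyclic loess and a repeated quantile normalization. With an array left out, rises numbered 14 to 28 with OLR1 siRNA untreated, 24 to 36 with UVPAPC and 11 to 25 for both agents. Rises over all genes then numbered 528 to 1135, 769 to 1437 and 1028 to 1739, in place of 975, 1462 and 1581. On OLR1 siRNA arrays UVPAPC gave 0 to 1 rises and 2 to 6 falls, beside 422 to 713 rises and 390 to 684 falls of all genes. The causes were not tested, beyond that fewer arrays or more entries enter some fits. Same-numbered arrays of different groups did not deviate together (6 of 18 correlations over 0.1, from -0.22 to 0.26, and 3 of 12 arrays closest to their own number), so the numbers were not taken as pairs. With the replicate number as a block the rises were 26 untreated, 36 with UVPAPC and 22 for both agents, and the falls with UVPAPC were 8 and 6. Over all genes that fit gave 955, 1453 and 1581 rises, and 821 and 586 falls. With 3 arrays a group, small differences cannot be told from the spread, and dim genes such as DBF4 sit nearer to background than the rest.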
